A study of Homo sapiens with 15 samples.

Results

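The 9 cytotoxic granule genes GZMA, GZMB, GZMH, GZMK, PRF1, NKG7, GNLY, KLRD1 and SRGN were taken by name from the 19738 genes measured in human lymphoid cell lines, and all 9 were found. They were read by 15 probe sets, 1 for each of 5 genes and several for each of the other 4. Signals of different probe sets are not on 1 scale, and no gene's level is set against another's. RNA was hybridised to Affymetrix U133 Plus 2.0 arrays, 15 arrays of 9 lines in all, and the deposited values are log2 signals, on which 1 unit is a doubling. Of the 10 arrays of classical Hodgkin lymphoma lines, L540 and L540Cy had 1 array each, and HDLM2, L428, L1236 and KM-H2 had biological duplicates. The 5 non-Hodgkin arrays were duplicates of Namalwa, a Burkitt lymphoma line, duplicates of Reh, a B cell acute lymphoblastic leukaemia line, and 1 array of the B cell lymphoma line SU-DHL-4. The labels name no treatment and no genetic change for any line. From background, L540Cy is a subline of L540, L540 and HDLM2 derive from T cells, and L428, L1236 and KM-H2 derive from B cells. Each line is 1 established culture, so a difference between lines is between these cultures.

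Cytotoxic T cells and natural killer cells kill by releasing granules at the contact with a target cell. Perforin, the product of PRF1, makes pores, and granzymes, which are serine proteases, enter and cleave proteins of the target. Serglycin, the product of SRGN, is the proteoglycan that packs these proteins in the granule, and it is also made by other blood cells, mast cells and myeloid cells among them. Granulysin (GNLY) is a granule protein that damages membranes, NKG7 is a granule membrane protein, and KLRD1 encodes CD94, a receptor chain of natural killer cells. Cytotoxic proteins are known in the tumour cells of some Hodgkin lymphomas.

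The granule genes were split among the lines. GZMB and NKG7 were high in L540 and L540Cy, GZMA was raised in L540Cy, and PRF1 was high in HDLM2. SRGN was high in all 6 Hodgkin lines, lower in Namalwa and lowest in Reh and SU-DHL-4. GZMH, GZMK, GNLY and KLRD1 differed by at most 0.69 log2 units between the means of the 9 lines. No line had all of the granule proteases, perforin and NKG7 high together.

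The windows before the gene starts are shown because GZMB and NKG7 were high in the same lines and PRF1 in another, while GZMH, beside GZMB, was low in all. Of the 9 genes, 6 had an entry among the RefSeq promoter sequences (build GRCh38.p14). The 250 bases before the start are printed 5′ to 3′ on the gene's own strand for GZMB (chr14:24634191-24634440, minus strand), its neighbour in the granzyme cluster GZMH (chr14:24609686-24609935, minus strand), GZMA (chr5:55102396-55102645, plus strand), PRF1 (chr10:70602742-70602991, minus strand) and NKG7 (chr19:51372655-51372904, minus strand). Capitals mark the motif matches named after the sequences.
GZMB: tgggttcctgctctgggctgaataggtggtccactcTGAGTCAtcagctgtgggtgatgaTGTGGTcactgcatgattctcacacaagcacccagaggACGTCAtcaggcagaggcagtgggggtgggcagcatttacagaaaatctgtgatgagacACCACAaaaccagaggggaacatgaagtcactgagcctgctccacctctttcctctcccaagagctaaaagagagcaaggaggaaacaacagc
GZMH: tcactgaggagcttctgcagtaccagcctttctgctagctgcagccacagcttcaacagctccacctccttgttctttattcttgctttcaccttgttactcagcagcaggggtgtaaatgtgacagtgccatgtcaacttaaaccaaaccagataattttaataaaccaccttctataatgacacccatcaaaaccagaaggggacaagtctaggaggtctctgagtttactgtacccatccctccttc
GZMA: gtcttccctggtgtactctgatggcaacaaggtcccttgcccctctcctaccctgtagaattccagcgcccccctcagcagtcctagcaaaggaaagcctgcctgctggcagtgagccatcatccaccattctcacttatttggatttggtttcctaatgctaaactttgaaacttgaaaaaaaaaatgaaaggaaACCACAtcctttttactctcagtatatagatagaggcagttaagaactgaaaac
PRF1: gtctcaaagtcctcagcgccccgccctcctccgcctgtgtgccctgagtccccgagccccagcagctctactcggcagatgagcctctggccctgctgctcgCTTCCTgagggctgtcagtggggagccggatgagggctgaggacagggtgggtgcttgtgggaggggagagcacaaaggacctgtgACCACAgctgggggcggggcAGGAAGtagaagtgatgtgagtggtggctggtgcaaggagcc
NKG7: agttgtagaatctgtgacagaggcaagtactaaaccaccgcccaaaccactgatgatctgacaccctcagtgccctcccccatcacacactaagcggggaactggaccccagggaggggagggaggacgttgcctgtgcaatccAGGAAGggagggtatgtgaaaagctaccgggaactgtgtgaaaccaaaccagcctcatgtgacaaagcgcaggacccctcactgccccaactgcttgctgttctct
The motifs searched on both strands were AP-1 (TGANTCA), RUNX (TGTGGT), ETS (AGGAAG), STAT (TTCNNNGAA), CRE (TGACGT), T-box (TCACACC) and the TATA box (TATAAA). The GZMB window held 4 matches, namely 1 AP-1, 2 RUNX and 1 CRE. The PRF1 window held 1 RUNX and 2 ETS matches, the GZMA window 1 RUNX match and the NKG7 window 1 ETS match. No letters of these motifs were found in the GZMH window. GNLY, whose window is not printed, held 1 RUNX match. Among 35116 promoter windows of the same length, an AP-1 match was in 6.57%, a RUNX match in 11%, an ETS match in 28.7% and a CRE match in 7.1%. A STAT match was in 6.57% of them, a T-box match in 2.76% and a TATA match in 10.7%. These matches describe letters, and no binding was measured here.

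**Figure D1:**
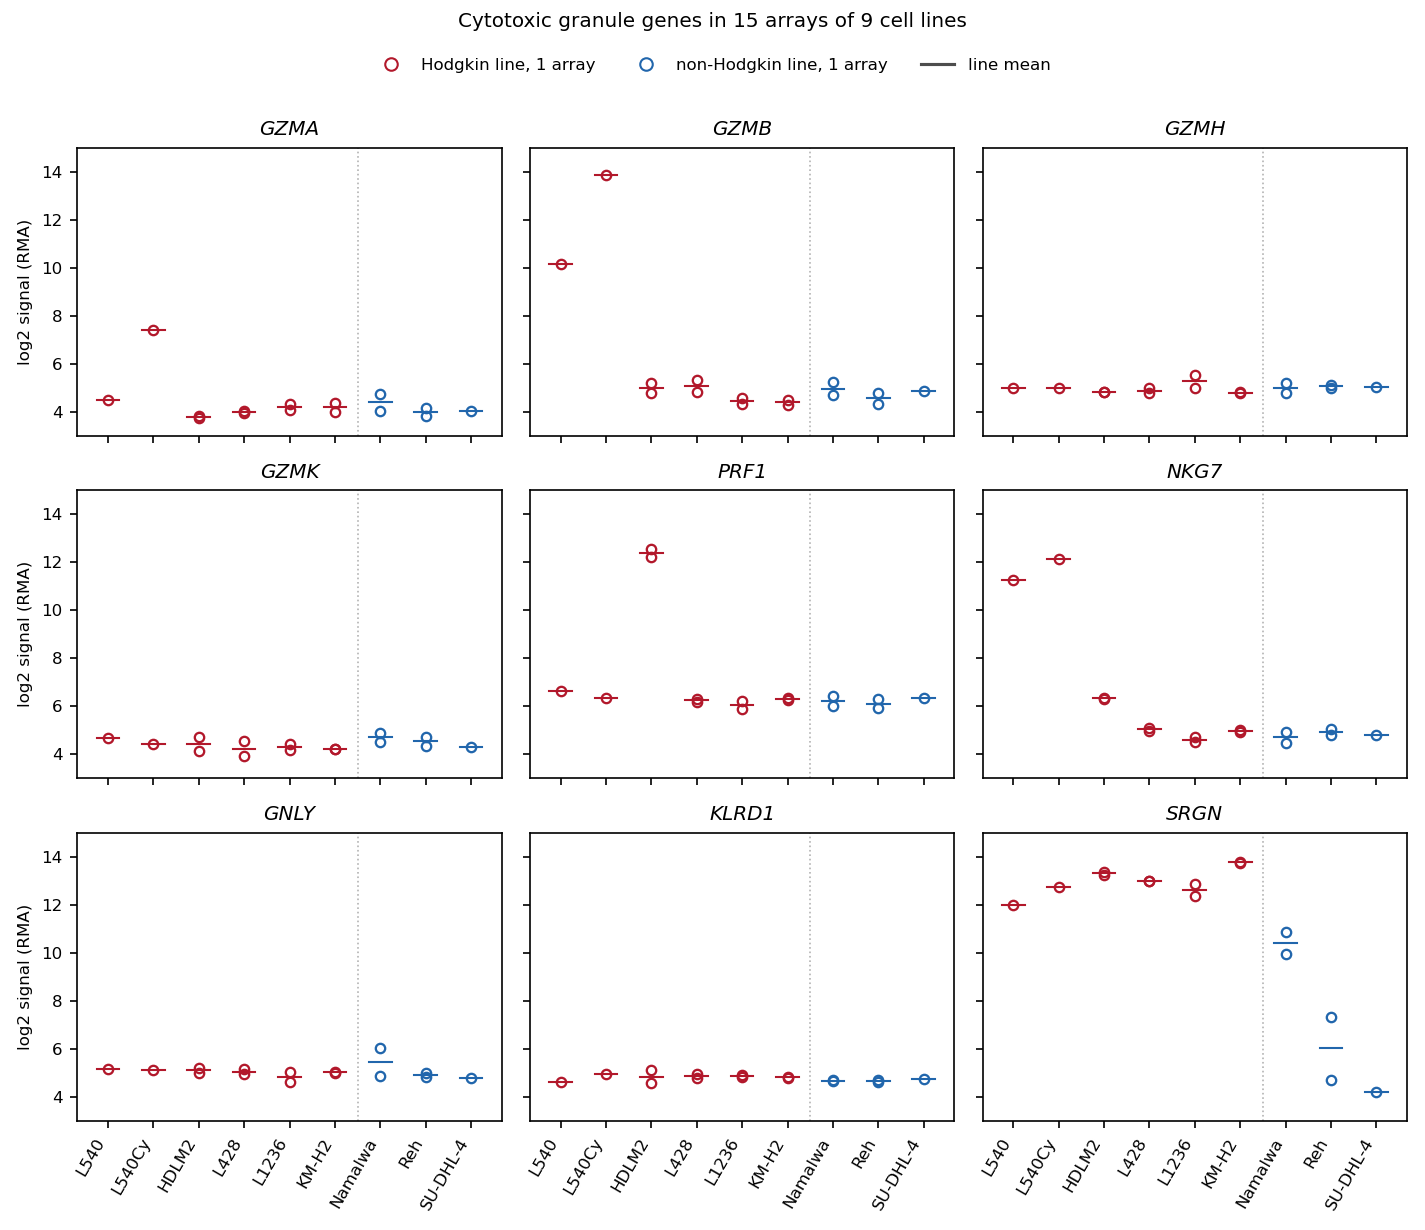
The log2 signal (vertical axis) of the 9 genes in each array, with lines along the horizontal axis, Hodgkin lines left of the dotted line and non-Hodgkin lines right of it; circles are arrays and bars are line means. GZMB reaches 13.86 in L540Cy and 10.15 in L540, PRF1 12.55 and 12.23 in HDLM2, and SRGN lies between 12 and 13.79 in the Hodgkin arrays.

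Array medians ranged from 5.5 to 5.57. Duplicates differed with an SD per array of 0.169 to 0.256 over all genes in the 4 duplicated Hodgkin lines, against 0.37 in Namalwa and 0.442 in Reh. Reh replicate 1 stood apart: over 22 genes that were more than 3 log2 units higher in SU-DHL-4 than in the other 13 arrays, Reh replicate 1 left aside, its signal exceeded that of Reh replicate 2 by a median of 3.995. The SRGN differences between groups of lines that include Reh, and the listed genes named between the classes, are therefore given without it as well. The order of the SRGN line means keeps both Reh arrays.

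The spread between lines was first set against that of all genes. The means of the 9 lines spanned at least 2 log2 units in 5 of the 9 granule genes, against 26.2% of all genes, and the median span of all genes was 1.09. The spans were 9.58 in SRGN, 9.47 in GZMB, 7.54 in NKG7, 6.32 in PRF1 and 3.61 in GZMA. These same 5 genes passed an F test among the 9 lines at an adjusted p under 0.05 (limma, adjusted over all genes), a threshold that 52% of all genes passed. Genes past it are named called below. The other 4 spans were 0.69 in GNLY, 0.48 in GZMK, 0.46 in GZMH and 0.30 in KLRD1.

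Among the granzymes, GZMB encodes granzyme B, which cleaves caspases in the target cell. Its log2 signal was 10.15 in L540 and 13.86 in L540Cy, against a lowest value of 4.28, a median of 4.78 and a highest of 5.30 in the other 13 arrays. Both arrays stood at least 4.85 above each of the others, with no overlap. In order of line means, L540Cy came first and L540 next, 3.71 lower, followed by L428 at 5.07, a further 5.08 lower. From there to KM-H2, the last at 4.39, no line differed from the one before it by more than 2 standard errors.

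L540 exceeded the mean of L428, L1236 and KM-H2 in GZMB by 5.52 log2 units (adjusted p = 1.09e-06), and L540Cy exceeded it by 9.23 (adjusted p = 5.84e-08). Of the 9 granule genes 2 were called in L540, where 16.9% of all genes were called at an adjusted p under 0.05, and 3 in L540Cy, where 20.5% were. No other gene had a larger difference between L540Cy and these 3 lines. HDLM2, the other T cell line, had 5.18 and 4.78, against 5.30 and 4.84 in L428, 4.32 and 4.56 in L1236, and 4.28 and 4.51 in KM-H2. HDLM2 thus lay within the range of the B cell derived Hodgkin arrays, with a difference of 0.35 from their mean (adjusted p = 0.311).

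GZMA encodes granzyme A, a tryptase that acts without caspases. Its log2 signal was 4.48 in L540 and 7.39 in L540Cy, against 3.73 to 4.74 in the other 13 arrays, with a median of 4.04. L540Cy alone stood apart, 2.65 above the next highest array, and L540 lay inside the range of the rest. L540Cy exceeded L428, L1236 and KM-H2 by 3.26 (adjusted p = 2.00e-05), while the difference of L540 was 0.36 (adjusted p = 0.462).

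GZMH and GZMK, which encode further granzymes of T and natural killer cells, were low and even. GZMH lay next to GZMB among the measured genes of the cluster and had 4.998 in L540 and 4.972 in L540Cy, against 4.77 to 5.51 in the other 13 arrays. GZMK, the neighbour of GZMA, had 4.68 in L540 and 4.41 in L540Cy, against 3.91 to 4.90 in the others. In both genes the 2 arrays fell inside the range of the rest, and the highest array was L1236 replicate 1 for GZMH and Namalwa replicate 2 for GZMK. CTSG, which encodes cathepsin G, is the next measured gene beyond GZMH. It had 6.66 in L540 and 6.48 in L540Cy, inside the range of 6.05 to 7.56 in the others. NOVA1, a further neighbour of GZMB, had 4.31 in L540 and 4.275 in L540Cy, inside the range of 3.78 to 5.60. STXBP6, the measured gene next to GZMB on its other side, had 5.06 in L540 and 4.72 in L540Cy, the lowest array. The others had 4.93 to 8.74. ESM1, CDC20B and GPX8, the other measured neighbours of GZMA, were also within the range of the other arrays in L540Cy, with 3.65, 5.40 and 3.70.

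PRF1 encodes perforin. Its log2 signal was 12.55 and 12.23 in the HDLM2 duplicates, against 5.90 to 6.64 in the other 13 arrays, with a median of 6.31. The HDLM2 arrays stood at least 5.59 above each of the others. L540 was next highest at 6.64, with L540Cy at 6.36, and below HDLM2 no line differed from the one before it by more than 2 standard errors. HDLM2 exceeded L428, L1236 and KM-H2 by 6.18 log2 units (SE 0.17, adjusted p = 1.31e-08).

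A further PRF1 probe set gave the same order of HDLM2 and the rest, with 9.27 and 9.67 in the HDLM2 duplicates and 4.73 to 5.71 in the other 13 arrays. NODAL, PALD1, ADAMTS14 and TBATA, the measured neighbours of PRF1, showed no step of that size in HDLM2. Their HDLM2 means of 5.99, 4.97, 6.19 and 4.93 lay inside the ranges of the other arrays.

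NKG7 encodes a granule membrane protein that takes part in granule release. Its log2 signal was 11.24 in L540 and 12.15 in L540Cy, 6.30 and 6.34 in the HDLM2 duplicates, and 4.48 to 5.10 in the other 11 arrays. L540 and L540Cy stood at least 4.89 above each other array, and HDLM2 stood between them and the rest without overlap. HDLM2 lay 4.92 below L540 and 1.28 above L428, each gap being more than 2 standard errors, and from L428 to L1236, the last, no line differed from the one before it by more than 2 standard errors.

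In NKG7, L540 exceeded L428, L1236 and KM-H2 by 6.36 log2 units (adjusted p = 4.75e-08), L540Cy by 7.27 (adjusted p = 2.86e-08) and HDLM2 by 1.44 (adjusted p = 6.14e-05). RMA compresses differences near background, so the true ratios of genes that are dim in one line are understated. The measured neighbours ETFB, CLDND2, LIM2 and C19orf84 showed no such step. In L540 they had 10.22, 5.10, 5.24 and 6.77, all inside the range of the 13 arrays of other lines.

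**Figure D2:**
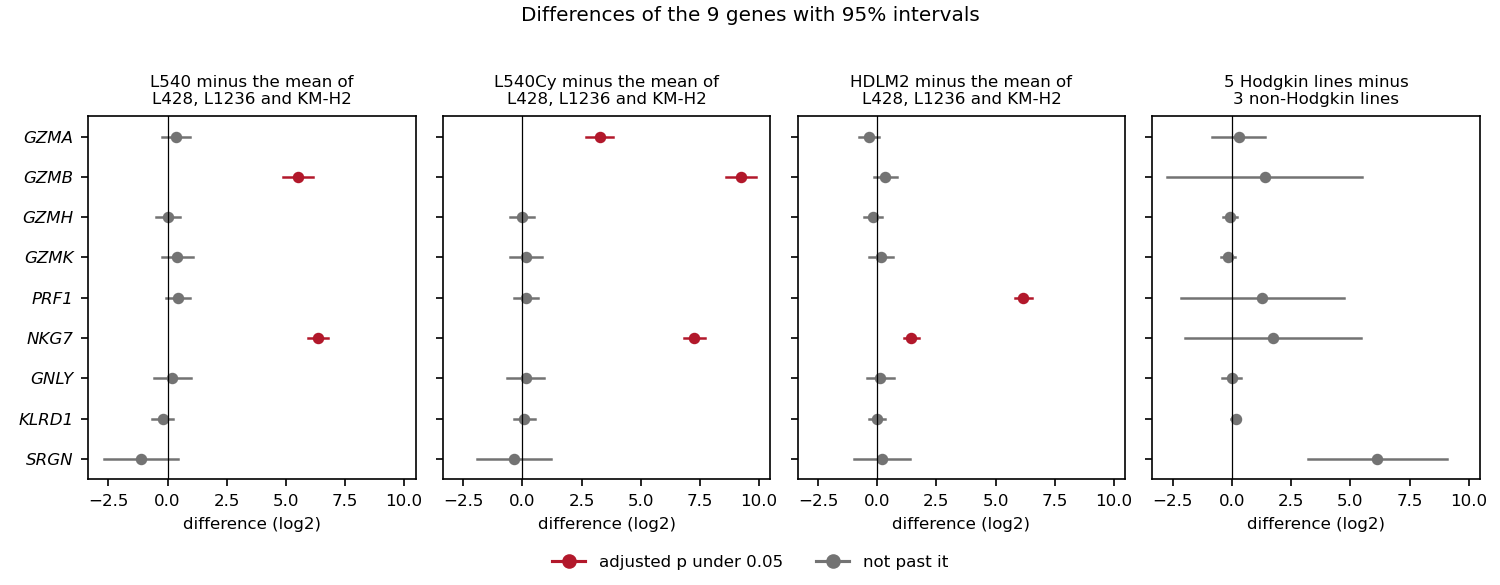
Differences in log2 signal (horizontal axis) of the 9 genes, with 95% confidence intervals, for L540, L540Cy and HDLM2 against the mean of the 3 B cell derived Hodgkin lines, and for the 5 Hodgkin lines (L540 averaged with L540Cy) against the 3 non-Hodgkin lines; red marks an adjusted p under 0.05. GZMB and NKG7 are red for both L540 and L540Cy, GZMA for L540Cy, PRF1 and NKG7 for HDLM2, and none of the 9 in the last panel.

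Set against the mean of the other 4 Hodgkin lines of origin, the L540 pair had 4 of 9 granule genes called, and 24.1% of all genes were called. GZMB was 7.28 higher (SE 0.20, adjusted p = 1.28e-08) and NKG7 6.45 higher (SE 0.14, adjusted p = 4.46e-09). Only 2 of the 19738 genes had a larger difference than GZMB, and only 4 a larger one than NKG7. GZMA was 1.90 higher (adjusted p = 6.19e-05), but without L540Cy the difference was 0.44 (adjusted p = 0.335). PRF1 differed by -1.25 (adjusted p = 3.65e-04) where the mean of the other lines holds HDLM2.

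HDLM2 against its 4 counterparts had 3 of 9 called, with 25.1% of all genes called. PRF1 was 6.11 higher (SE 0.16, adjusted p = 1.70e-08), and only 7 genes had a larger difference. GZMB differed by -1.50 (adjusted p = 4.42e-04) and GZMA by -0.80 (adjusted p = 0.011), against means that hold the L540 pair. Over the duplicated lines, which leave that pair out, with the replicate number as a block, GZMB differed by 0.35 (adjusted p = 0.308) and GZMA by -0.35 (adjusted p = 0.129). Against the 3 B cell derived lines alone GZMA differed by -0.35 (adjusted p = 0.261), and 2 of the 9 genes, PRF1 and NKG7, were called, with 26% of all genes called there. GZMA was no longer called without HDLM2 replicate 1 (-0.76, adjusted p = 0.099), without HDLM2 replicate 2 (-0.85, adjusted p = 0.0681) or without L540Cy (-0.44, adjusted p = 0.149).

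The L540 pair and HDLM2 thus differed from each other in opposite directions. GZMB was 7.02 higher in the L540 pair than in HDLM2 (adjusted p = 7.75e-08), NKG7 was 5.37 higher (adjusted p = 5.81e-08), and PRF1 differed by -5.89 (adjusted p = 6.51e-08), in a comparison that called 20.1% of all genes. L428, L1236 and KM-H2, each set against the other 4 Hodgkin lines, had 3 of 9 genes called, all lower and the same 3 in each, GZMB, PRF1 and NKG7. All genes called in those comparisons made up 23%, 23.1% and 27.1%, and those called as lower 12.3%, 10.1% and 13%. The means these lines were set against hold the L540 pair, high in GZMB and NKG7, and HDLM2, high in PRF1. With the replicate number as a block over the duplicated lines, without the L540 pair, the members called were 1 in L428, 2 in L1236 and 1 in KM-H2, PRF1 being among them in each.

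Few genes were as far apart from the other arrays. L540 and L540Cy both exceeded all other 13 arrays by more than 4 log2 units in 7 genes (0.0355%), of which 2, GZMB and NKG7, were granule genes. Both HDLM2 arrays did so in 6 genes (0.0304%), PRF1 among them. L540Cy exceeded the other 14 arrays by more than 2 units in 11 genes (0.0557%), with GZMA and GZMB among them. The thresholds of these counts were set with the values of the granule genes known.

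The 2 granzymes also differed between L540Cy and L540, each measured on 1 array and assumed to vary as the duplicated lines did. GZMB was 3.71 higher in L540Cy (SE 0.37, adjusted p = 0.00135) and GZMA 2.90 higher (SE 0.34, adjusted p = 0.00347). These were 2 of 9 genes called, with 1.49% of all genes called, and 11 genes had a larger difference than GZMB and 21 a larger one than GZMA. NKG7 had a difference of 0.91 (adjusted p = 0.143), SRGN of 0.75 and PRF1 of -0.29, none of them called. In arrays of whole cultures, a larger share of expressing cells and more RNA per cell cannot be told apart.

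Granulysin and CD94 were even across all lines. GNLY had 5.17 in L540, 5.10 in L540Cy and 5.22 and 4.99 in HDLM2, against 4.63 to 5.15 in L428, L1236 and KM-H2. In the non-Hodgkin arrays GNLY had 4.88 and 6.05 in Namalwa, 4.84 and 4.99 in Reh, and 4.77 in SU-DHL-4. The highest array was Namalwa replicate 2, and the further GNLY probe set ranged only from 4.45 to 4.92. KLRD1 ranged from 4.57 to 5.11 over all arrays, both ends being HDLM2 arrays, and its other 2 probe sets were as even.

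SRGN followed another pattern from the rest. Its log2 signal was 12 in L540, 12.75 in L540Cy, 13.25 and 13.36 in HDLM2, and 12.97 in both L428 arrays. It was 12.38 and 12.87 in L1236 and 13.79 and 13.74 in KM-H2. In the non-Hodgkin arrays it was 10.85 and 9.95 in Namalwa, 4.71 and 7.32 in Reh, and 4.19 in SU-DHL-4. All 10 Hodgkin arrays lay above all 5 non-Hodgkin arrays, as was so in 2.36% of all genes.

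In order of line means SRGN ran from KM-H2 at 13.77 through HDLM2, L428, L540Cy and L1236 to L540 at 12, and none of these neighbours differed by more than 2 standard errors. Namalwa followed at 10.40, Reh at 6.02 and SU-DHL-4 at 4.19, each step exceeding 2 standard errors. The steps were 2.01, 6.75 and 2.30 standard errors, so the first only just passed. The Reh duplicates differed by more than those of any other line in this gene, and Reh replicate 1, which stood apart above, was the lower one.

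With the lines as replicates, the 5 Hodgkin lines of origin averaged 13.01 ± 0.55 in SRGN and the 3 non-Hodgkin lines 6.87 ± 3.19 (SD). The difference of 6.14 (SE 1.25) missed the threshold after adjustment over all genes (limma, adjusted p = 0.0732, unadjusted p = 0.00148). Of the 9 granule genes 0 were called in this comparison by limma, against 1.36% of all genes, and 1 had an unadjusted p under 0.05. With L540 and L540Cy counted as 2 lines the SRGN difference was 6.03 and was called (adjusted p = 0.0382), as it was without Namalwa, at 7.90 (adjusted p = 0.00274). Without Reh replicate 1 it was 5.70 (adjusted p = 0.0939), and over all alternatives the adjusted p ranged from 0.00246 to 0.176.

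In the other variable genes the Hodgkin lines were widely spread. NKG7 had a difference of 1.72 (adjusted p = 0.669), GZMB of 1.38 (adjusted p = 0.76), PRF1 of 1.28 (adjusted p = 0.738) and GZMA of 0.28 (adjusted p = 0.822). The SD among the Hodgkin lines was 2.96 in NKG7, 3.27 in GZMB and 2.74 in PRF1, against 0.11, 0.22 and 0.12 among the non-Hodgkin lines. Without the L540 pair the GZMB difference was -0.075, and without L540Cy the GZMA difference was -0.011.

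Arrays as replicates allowed SRGN to be compared between lines. The 5 Hodgkin lines exceeded Namalwa by 2.61 log2 units (SE 0.50, adjusted p = 0.00281), and without Namalwa replicate 2 the difference was 2.16 (adjusted p = 0.0525). In that comparison 4 of 9 granule genes were called, SRGN, GZMB, PRF1 and NKG7, with 32.3% of all genes called. Its p-values measure the spread between arrays of a line and leave out the spread among the Hodgkin lines. The Hodgkin mean holds the L540 pair, high in GZMB and NKG7, and HDLM2, high in PRF1, so these 3 calls describe no difference shared by the Hodgkin lines. Namalwa exceeded Reh and SU-DHL-4 by 5.30 (SE 0.61, adjusted p = 4.66e-04), and without Reh replicate 1 by 4.65 (adjusted p = 7.23e-06). SRGN was the 1 granule gene of 9 called there, against 14.7% of all genes, and the 1 called in the F test among the 3 non-Hodgkin lines, against 19.3%.

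**Figure D3:**
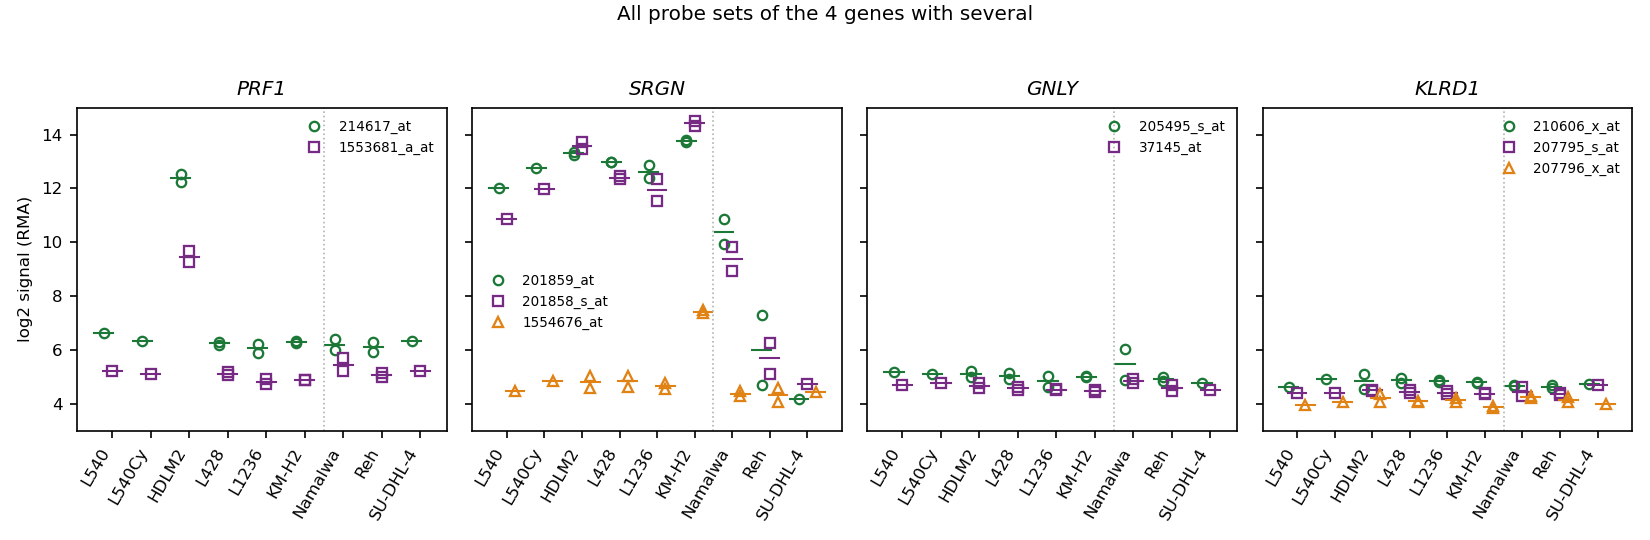
The log2 signal (vertical axis) of every probe set of PRF1, SRGN, GNLY and KLRD1 in each array, by line along the horizontal axis; symbols are arrays of the probe sets named in each legend and bars are line means. Both PRF1 probe sets stand out in HDLM2, and 1 of the 3 SRGN probe sets is raised in KM-H2 alone, at 7.36 and 7.50.

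The SRGN probe sets did not agree. A second one followed the first, with 10.88 to 14.51 in the Hodgkin arrays, against 9.82 and 8.92 in Namalwa, 5.10 and 6.27 in Reh and 4.73 in SU-DHL-4. The third had 7.36 and 7.50 in the KM-H2 duplicates and 4.08 to 5.05 in the other 13 arrays, Hodgkin and non-Hodgkin alike.

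The T cell and B cell derived Hodgkin lines were compared last, with the lines as replicates, 2 against 3. The granule genes called were 0 of 9 by limma, against 0.198% of all genes, and 1 of the 9 had an unadjusted p under 0.05. That was NKG7, with a difference of 4.13 (adjusted p = 0.54, unadjusted p = 0.0223). GZMB had a difference of 3.86 (adjusted p = 0.716) and PRF1 of 3.24 (adjusted p = 0.715). With 1 of the T cell derived lines left out, the other stood alone against 3 and took its spread from the other lines. Without HDLM2, GZMA, GZMB and NKG7 were called, with 117 of all genes called (0.593%), and without the L540 pair PRF1 was called, with 139 of all genes (0.704%).

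Genes of granule sorting and release, a list of 16, all measured, came next in the pathway. In the L540 pair against the other Hodgkin lines 4 rose and 2 fell, 6 of 16 called against 24.1% of all genes, with a median difference of 0.07 against 0.03 over all genes. LYST, a regulator of lysosome size, was 1.21 higher (adjusted p = 0.00574), and STX11, a syntaxin needed for granule fusion in killer cells, 0.94 higher (adjusted p = 0.0107). LYST had 9.82 in L540 and 8.67 in L540Cy, with 9.80 and 10.53 in HDLM2 and 9.37 and 9.42 in L1236, so that L1236 lay above L540Cy. STX11 had 8.52 in L540 and 9.28 in L540Cy, with 8.66 and 9.17 in HDLM2 and 9.12 and 9.15 in L428, against 6.74 and 6.99 in L1236 and 7.03 and 6.79 in KM-H2. In STX11 the L540 pair thus overlapped with HDLM2 and L428. VAMP8, a vesicle fusion protein, had 3.95 in L540, 4.34 in L540Cy and 4.59 and 4.37 in L1236, against 9.87 to 11.27 in HDLM2, L428 and KM-H2.

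In HDLM2 5 genes of the release list rose and 3 fell, 8 of 16 called against 25.1% of all genes, with a median difference of 0.13 against 0.01 over all genes. VAMP8 was 3.87 higher (adjusted p = 0.0172) and LYST 2.35 higher (adjusted p = 9.37e-05). CTSC, the cathepsin that activates granzymes, fell by 1.60 (adjusted p = 1.42e-05). In the 5 Hodgkin against the 3 non-Hodgkin lines 1 of 16 was called, against 1.36% of all genes: STX11 rose, with 8.15 ± 1.15 in Hodgkin lines and 4.35 ± 0.16 in non-Hodgkin lines (SD, adjusted p = 0.0395). Without Reh replicate 1 its difference was 3.92 (adjusted p = 0.0434).

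Of 3 listed granzyme inhibitors 2 were measured. SERPINB9, which inhibits granzyme B, had 6.38 in L540 and 6.51 in L540Cy, against 3.82 and 5.16 in HDLM2 and 10.50 and 10.48 in L428. L1236 had 5.93 and 4.35 and KM-H2 6.13 and 7.21, so that HDLM2 overlapped with L1236. SERPINB9 fell by 2.70 in HDLM2 (adjusted p = 0.00779) and was not called in the L540 pair. SERPINB1, an inhibitor of neutrophil serine proteases, was 2.45 higher in the L540 pair (adjusted p = 5.68e-05), with 12.45 in L540 and 12.76 in L540Cy, above all other arrays.

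Of 21 measured receptors and adaptors of killer cells, 2 rose and 1 fell in the L540 pair, and 4 rose and 2 fell in HDLM2. These were 3 of 21 called against 24.1% of all genes, and 6 of 21 against 25.1%. The medians of the list were -0.05 in the L540 pair and -0.01 in HDLM2, against 0.03 and 0.01 over all genes. CD247, the zeta signalling chain, had 10.21 in L540, 10.50 in L540Cy and 9.98 and 10.40 in HDLM2, against 5.42 to 5.82 in the B cell derived Hodgkin arrays. In the non-Hodgkin arrays it had 8.73 in SU-DHL-4, 7.44 and 6.81 in Reh and 7.15 and 6.61 in Namalwa. CD247 was thus highest in both T cell derived lines and lowest in the B cell derived Hodgkin lines.

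CD2, an adhesion receptor of T and natural killer cells, had 11.30 and 10.19 in HDLM2, against 6.70 in L540 and 4.89 in L540Cy. IL2RB, a receptor chain for interleukins, was 1.86 higher in the L540 pair and 1.76 higher in HDLM2 (adjusted p = 7.12e-04 and 9.23e-04), and 5.11 higher in Hodgkin than in non-Hodgkin lines (adjusted p = 0.0273). Without Reh replicate 1 the last difference was 5.28 (adjusted p = 0.0324). CD8A was even, between 4.59 and 5.18 in all arrays, as was the adaptor TYROBP, between 3.77 and 5.36.

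Of the 10 transcription factors of cytotoxic lymphocytes 3 rose and 1 fell in the L540 pair, and 3 rose and 2 fell in HDLM2. These were 4 of 10 called against 24.1% of all genes, and 5 of 10 against 25.1%. Their medians were 0.06 and 0.08, against 0.03 and 0.01 over all genes. HOPX had 13.13 in L540, 12.72 in L540Cy and 12.16 and 12.23 in HDLM2, against 5.79 to 8.47 in the B cell derived Hodgkin arrays. TBX21 (T-bet) had 7.16 and 7.54 in HDLM2, against 5.94 in L540, 6.13 in L540Cy and 6.42 at the highest elsewhere. EOMES fell by 2.48 in the L540 pair (adjusted p = 4.20e-04), with 8.01 in L540 and 5.95 in L540Cy. It had 8.85 and 7.82 in HDLM2, so that L540 overlapped with HDLM2. The B cell derived lines had 9.005 and 9.44 in L428, 8.67 and 8.96 in KM-H2, and 11.82 and 11.11 in L1236.

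Effector cytokines and the death ligand were measured in 7 of 9 listed genes, with 1 lower in the L540 pair and 1 higher and 1 lower in HDLM2. That made 1 of 7 called against 24.1% of all genes, and 2 of 7 against 25.1%. CCL5, a chemokine of killer cells, fell by 1.097 in the L540 pair and by 3.30 in HDLM2 (adjusted p = 0.014 and 1.67e-05). IL32 was 5.39 higher in Hodgkin than in non-Hodgkin lines (adjusted p = 3.86e-04), with no overlap of arrays, and 5.37 higher without Reh replicate 1 (adjusted p = 4.06e-04). Between L540Cy and L540, 0 genes of any of these 5 lists were called by limma, against 1.49% of all genes.

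**Figure D4:**
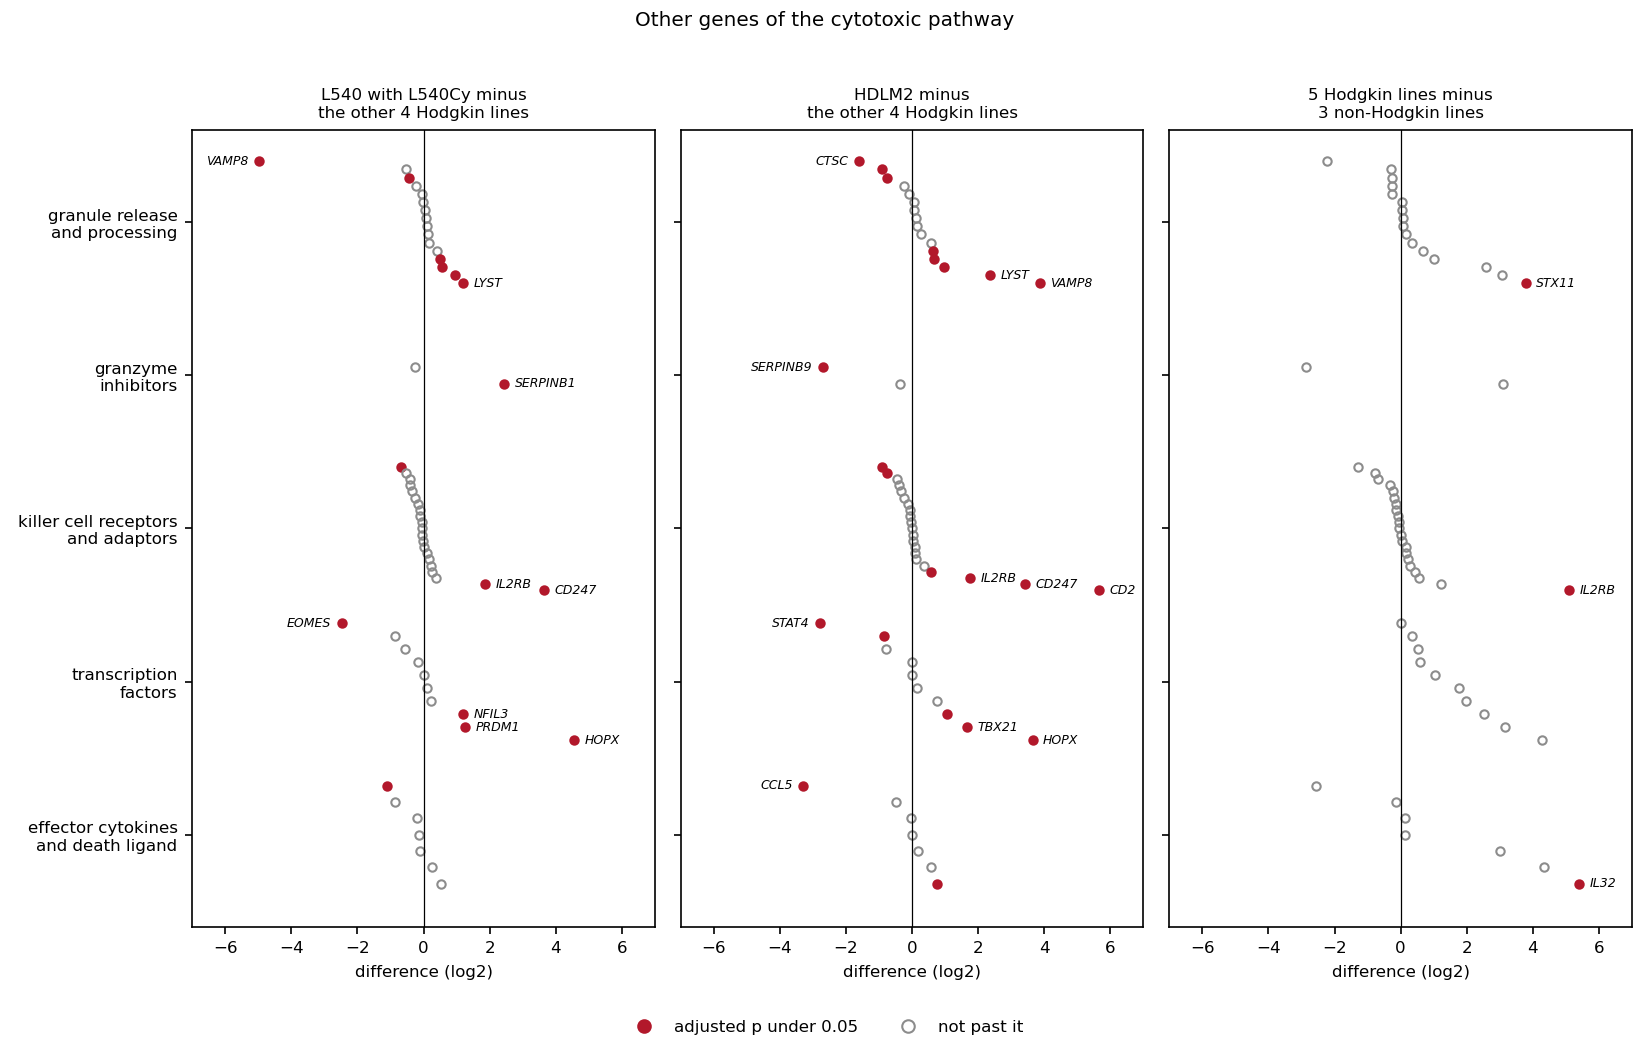
Differences in log2 signal (horizontal axis) of the measured genes of 5 lists (rows) in the L540 pair and HDLM2, each against the other 4 Hodgkin lines, and in Hodgkin against non-Hodgkin lines; filled red points have an adjusted p under 0.05, and those of at least 1.2 are named. CD247, HOPX and LYST have red points above 0 for the L540 pair and for HDLM2, and VAMP8 lies at -4.99 in the L540 pair and 3.87 in HDLM2.

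Markers of other lineages were set beside these results. Different probe sets are not on 1 scale, so the summed signals below mostly follow the brightest probe sets of a list. They are no level of all its genes. Of 8 measured T cell markers 3 spanned 2 log2 units between the line means, and the log2 of their summed signal was 10.79 to 10.80 in the L540 pair, 8.34 to 8.51 in HDLM2, 8.34 to 10.93 in the B cell derived Hodgkin arrays and 8.59 to 11.75 in the non-Hodgkin arrays. Of these 8 markers 1, CD4, was called in the L540 pair, 3.30 higher, against 24.1% of all genes called. In HDLM2, CD4 was again the 1 called, 2.01 lower, against 25.1% of all genes. CD3D had 8.75 and 8.44 in KM-H2, against 5.29 to 7.04 in the other arrays. LCK had 4.48 to 5.03 in Hodgkin arrays and 6.42 to 11.59 in non-Hodgkin arrays, a difference of -4.79 (adjusted p = 0.0223) that was -4.13 without Reh replicate 1 (adjusted p = 0.133). CD4 had 10.51 in L540 and 10.53 in L540Cy, with 10.33 and 9.88 in KM-H2, against 6.03 to 6.46 in all other arrays. CD3E was even, between 4.95 and 6.03. Of 4 measured mast cell and basophil markers 0 spanned 2 log2 units between the line means, and the log2 of their summed signal was 7.02 to 7.07 in the L540 pair, 7.06 to 7.09 in HDLM2, 6.81 to 6.94 in the B cell derived Hodgkin arrays and 6.82 to 7.97 in the non-Hodgkin arrays. Of 6 myeloid markers 2 did so, and their sum was 8.57 to 8.87 in the L540 pair and 7.56 to 7.83 in HDLM2, against 7.36 to 9.60 in the B cell derived Hodgkin arrays and 7.32 to 7.91 in the non-Hodgkin arrays.

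B cell markers ran against SRGN between the classes, but not in every line. Of 5 measured, 3 fell in the Hodgkin lines, CD79A, CD79B and CD22, in a comparison that called 1.36% of all genes. Without Reh replicate 1 the same 3 were called (limma, adjusted p of 0.0485 at most). MS4A1 and PAX5 were lower but not called (adjusted p = 0.0811 and 0.164). Namalwa had CD79A at 12.03 and 11.92 with SRGN at 10.85 and 9.95. L1236 had PAX5 at 10.99 and 10.63 with SRGN at 12.38 and 12.87. The log2 of the summed signal of the 5 was 8.13 to 8.34 in the L540 pair and 8.49 to 8.58 in HDLM2. It was 8.08 to 11.14 in the B cell derived Hodgkin arrays, against 13.27 to 14.12 in the non-Hodgkin arrays. The part of lineage in the SRGN difference was not tested.

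The genes most like each variable member over the 9 line means were found among 5149 genes by Pearson's r, as a description without a p, since each profile rests on 1 or 2 high lines. For GZMB they were SOX17 (r = 0.997), CCNA1 (r = 0.996) and ANKRD29 (r = 0.993). SOX17 had 7.02 in L540 and 9.39 in L540Cy, against 4.09 at the highest in other lines. For NKG7 they were PLSCR4 (r = 0.99), G0S2 (r = 0.989) and PROK2 (r = 0.988).

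For PRF1 they were INA (r = 0.996), SPESP1 (r = 0.996) and LRRTM2 (r = 0.995), all high in HDLM2. For GZMA they were MAP3K5-AS1 (r = 0.989), ATP12A (r = 0.979) and KIR2DL4 (r = 0.975), a killer cell receptor gene with 7.40 in L540Cy and 5.40 in L540, against 5.59 at the highest in other lines. For SRGN they were NFE2L3 (r = 0.961), IRF4 (r = 0.959) and RAB29 (r = 0.956). IRF4, a transcription factor of activated lymphocytes, had 11.64 at the lowest among Hodgkin lines, against 9.19 at the highest among non-Hodgkin lines.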

How the data were processed

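The authors deposited log2 signals per probe set made with RMA (robust multi-array average), per the submitters' processing notes. No version, setting or genome build is given in the sources used here. Of 54675 probe sets, 62 controls, 1801 with several symbols and 11721 with none in the platform annotation were left out. Of the 41091 others, 41037 matched a RefSeq gene by Entrez identifier and 0 were renamed. A gene's probe set was the one with the highest mean over 15 arrays, which left 19738 genes. Some listed genes, SERPINB6, KLRC1, KLRK1, FCGR3A, CCL3, CSF2 and MS4A2 among them, were not analysed here.

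Classes were compared over lines of origin, with arrays averaged and L540 averaged with L540Cy (5 against 3), and lines over arrays in 1 fit of 9 lines with 6 residual degrees of freedom. Both fits (R 4.3.3, limma 3.58.1) gave two-sided p-values adjusted by Benjamini and Hochberg's method over every gene. A further fit of the lines of origin, in groups of T cell derived, B cell derived and non-Hodgkin lines, was adjusted likewise. Simulated data were used for the first fits only. For the class fit they had the spread of the non-Hodgkin lines, so wider spread among Hodgkin lines, as in GZMB, NKG7 and PRF1, was not covered. Lines measured once take the spread of the duplicated ones, and the number of arrays limits the precision. The series calls duplicates biological; the p-values measure the spread between arrays or lines. Members, lists, comparisons with single lines and motifs were chosen with earlier results of these data known. The text names all members, up to 3 called genes a list and direction in the single-line and class comparisons, and the 3 genes most like each variable member; Y-linked genes and XIST were left out of the last. Within the 4 duplicated Hodgkin lines, duplicate differences correlated over 0.1 in 6 of 6 pairs (0.247 to 0.355), so replicate numbers may pair arrays there, judged from the data alone. The main fits left such pairing out, and only the alternatives with a replicate block used the numbers. The genes TYROBP, CD8A, CD3E, CD3D, LCK and IRF4 were described after their values were seen. Alternatives changed the probe set, dim filter (mean of at least 6), normalization, variance model, replicate unit, replicate block, arrays and lines; comparisons of single lines with the B cell derived lines, with Namalwa and within the non-Hodgkin lines, and listed genes without Reh replicate 1, were added after seeing the data.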

Additional observations from a re-analysis of the deposited data

Results flagged for a closer look

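Among the 9 granule genes, each tested over the means of the 5 Hodgkin lines of origin, 4 had a line far from the others by Dixon's ratio of the gap to the whole range, whose critical value for 5 lines is 0.71. For normally spread line means chance marks about 1 in 20 such groups, but whether these means were so spread was not tested. The share of all genes marked in this way was not computed, so the count of 4 cannot be read as an excess over other genes. GZMB in L540 with L540Cy had a ratio of 0.911, with a mean of 12.01 against 5.07 in the next line. NKG7 in the same pair had 0.758, with 11.69 against 6.32. GZMA in the pair had 0.806, with 5.94 against 4.19. That 5.94 averages 4.48 in L540 and 7.39 in L540Cy, and with L540 in place of the pair the ratio was 0.409, below the critical value. PRF1 in HDLM2 had 0.932, with 12.39 against 6.498.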

How the results depend on the processing

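Over 45 results and 34 settings, 891 of 934 alternative values were counted as unchanged. Differences were so counted if they kept direction and side of the threshold, and spans if they moved by less than the SD between duplicates. Counts of members called were so counted also where they changed by a small ratio, as from 3 to 4 in HDLM2. Leaving out an array of a line outside a comparison of lines could change its standard error but not the difference. Part of the 891 was thus fixed by the design. With genes of a mean of at least 6, PRF1 and SRGN alone were tested: the members called were 1 for Hodgkin minus non-Hodgkin (SRGN), 1 each (PRF1) for the L540 pair, HDLM2, L428, L1236 and KM-H2, 0 for L540Cy minus L540 and 2 in the F test among lines. SRGN made 1 called for Hodgkin minus non-Hodgkin also with L540 and L540Cy as 2 lines, without Namalwa, and with arrays as replicates and the line as a random block (5.93, adjusted p = 0.00246; 1072 genes called against 268). T cell minus B cell derived called 1 without the L540 pair and 3 without HDLM2. Leaving out single arrays gave 1 to 2 members in the F test among non-Hodgkin lines, 2 (GNLY and SRGN) without Namalwa replicate 1.

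The replicate numbers did not pair all the duplicated lines. Of all 15 pairs of lines, 10 had a correlation of their duplicate differences over 0.1 (range -0.0703 to 0.355). The pairs not over it were those with Namalwa, while Reh had 0.144 to 0.216 with the 4 duplicated Hodgkin lines. With the replicate block, over the 12 numbered arrays, which leave out L540, L540Cy and SU-DHL-4, 1 member was called for L428 and for KM-H2 and 3 in the F test, and GZMB in HDLM2 was 0.35. The same arrays without the block gave 1, 1, 3 and 0.35, so against these arrays the block changed no count of members called in the fit of lines. With the line as a random block as well, Hodgkin minus non-Hodgkin called 1 member (SRGN, 4.96, adjusted p = 0.0405; 570 genes called), with -0.035 for GZMB and -0.144 for GZMA. Other reversals were GZMA at -0.011 without L540Cy, and GZMB at -0.075 and GZMA at -0.10 without the L540 pair.

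All genes called for Hodgkin minus non-Hodgkin were 423 with L540 and L540Cy as 2 lines, 146 without Namalwa and 174 without SU-DHL-4. For T cell minus B cell derived lines 39 became 139 without the L540 pair, 117 without HDLM2, 18 without Namalwa, 23 without SU-DHL-4 and 23 with the dim filter. For the L540 pair 4759 became 2989 without L540Cy. Leaving out 1 array gave 158 to 468 for L540Cy minus L540 against 294, at least 2310 for L428 against 4546, 2452 for L1236 against 4563, 3302 for KM-H2 against 5348 and 3208 for HDLM2 against 4960. Where a setting changed a result, the cause was not tested, other than fewer genes or arrays. Signal near background limits what dim genes can show.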

Other observations

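Other genes of killer cells and neighbours of the granule genes differed in single lines, and are given as values only, chosen after they were seen. KLRC3, a partner chain gene beside KLRD1, had 8.41 and 6.87 in Namalwa, against 3.25 to 4.24 in the other 13 arrays. KIFBP, a neighbour of SRGN, had 8.34 in L540 and 5.07 in L540Cy. The Reh duplicates, replicate 1 before replicate 2, had 10.83 and 5.33 in VAMP8 and 10.39 and 6.42 in the T cell kinase LCK, where SU-DHL-4 had 11.78 and 11.59.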
